A study of Homo sapiens with 2 samples.

Results

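The leukocyte immunoglobulin-like receptors (LILR) are encoded side by side in the leukocyte receptor complex of chromosome 19, and 10 of them are described here by their CpG methylation in a pair of acute myeloid leukaemia (AML) cell lines. The 10 genes were chosen by name, LILRB1 to LILRB5 and LILRA1, LILRA2, LILRA4, LILRA5 and LILRA6, from 20163 protein-coding genes of the annotation, by a rule that uses no measured value. For each gene, the CpG dinucleotides within 2000 bp of the transcription start site (the promoter) and in the rest of the gene (the gene body) were taken on GRCh37. Together these windows held 2409 CpG dinucleotides, each counted once, and in 2126 of them both libraries had more than 5 reads. OCI-AML3 carries a heterozygous mutation of the DNA methyltransferase gene DNMT3A, and AML5, labelled OCI-AML5 by the submitters, is wild type for DNMT3A. Both are established human cell lines labelled with the same growth medium and no treatment, and each was sequenced once as a whole genome after bisulfite conversion. With 1 library per line, the DNMT3A genotype cannot be told apart from any other difference between the lines, and no value below has a replicate. DNA methylation gives no RNA level, so the cell type of the lines could not be checked against marker expression.

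LILR proteins are receptors of the immunoglobulin superfamily on the surface of monocytes, macrophages, dendritic cells and other leukocytes. The LILRB receptors are inhibitory: their cytoplasmic tails carry tyrosine motifs that recruit the phosphatases encoded by PTPN6, PTPN11 and INPP5D. The LILRA receptors have short tails and signal through the Fc receptor common gamma chain, the product of FCER1G. Several members bind MHC class I molecules, and LILRB4 is known as a surface marker of leukaemia cells with monocytic features. DNMT3A places new methyl groups on CpG dinucleotides, and starts of transcribed genes are commonly free of methylation.

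The sequences around the starts are given first, because the methylation at single CpG dinucleotides is read against them. Each run below is the 300 bases from 250 before to 50 after and including the gene's own start on GRCh37, 5′ to 3′ on the strand of the gene, with the CpG dinucleotides in capitals. LILRB2 (chr19:54784916-54785215, minus strand) and LILRB1 (chr19:55141685-55141984, plus strand) are shown as a pair of nearly alike starts with mostly low methylation in both lines. LILRB4 (chr19:55174187-55174486, plus strand) had 0 methylated calls at its 4 printed CpG dinucleotides in both lines, and LILRA6 (chr19:54746591-54746890, minus strand) is the start most like it.
LILRB2: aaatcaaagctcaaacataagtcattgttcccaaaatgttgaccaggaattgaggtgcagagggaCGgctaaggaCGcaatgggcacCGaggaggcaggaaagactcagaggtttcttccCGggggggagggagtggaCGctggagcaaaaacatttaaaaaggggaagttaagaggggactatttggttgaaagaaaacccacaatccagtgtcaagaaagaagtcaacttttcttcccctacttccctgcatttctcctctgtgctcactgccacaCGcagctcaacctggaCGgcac
LILRB1: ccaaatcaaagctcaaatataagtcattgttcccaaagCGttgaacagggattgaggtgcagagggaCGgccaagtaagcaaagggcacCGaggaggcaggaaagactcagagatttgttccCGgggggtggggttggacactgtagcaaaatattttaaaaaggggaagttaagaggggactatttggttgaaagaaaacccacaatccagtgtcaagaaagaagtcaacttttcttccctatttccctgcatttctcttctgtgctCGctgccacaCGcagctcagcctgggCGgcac
LILRB4: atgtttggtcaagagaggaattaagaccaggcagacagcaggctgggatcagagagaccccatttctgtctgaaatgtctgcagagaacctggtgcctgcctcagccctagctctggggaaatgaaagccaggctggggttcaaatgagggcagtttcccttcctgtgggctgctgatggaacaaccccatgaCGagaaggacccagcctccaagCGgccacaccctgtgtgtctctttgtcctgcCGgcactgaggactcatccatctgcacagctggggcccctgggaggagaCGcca
LILRA6: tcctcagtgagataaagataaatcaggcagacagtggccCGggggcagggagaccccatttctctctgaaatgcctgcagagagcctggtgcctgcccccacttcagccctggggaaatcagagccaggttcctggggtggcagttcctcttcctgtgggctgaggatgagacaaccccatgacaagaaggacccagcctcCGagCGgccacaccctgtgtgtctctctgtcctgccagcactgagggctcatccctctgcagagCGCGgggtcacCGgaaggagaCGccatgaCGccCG
By edit distance, the LILRB2 and LILRB1 runs were 90.7% identical, and the LILRA1 run was 93.3% identical to LILRB1 and 90.7% to LILRB2. The LILRB4 and LILRA6 runs shared 76% of their bases, whereas LILRB4 and LILRB1 shared 45%, a value in the lower range of the 45 pairs (41.7% to 93.3%). The number of CpG dinucleotides in the same 300-base windows of all 10 genes ranged from 1 (LILRA5) to 11 (LILRA4). Short motifs of blood transcription factors were searched on both strands of these 10 windows, and a match is only a description of letters. The PU.1 core GAGGAAG was in 0 of 10 windows (14.1% of 19881 protein-coding starts held it), the RUNX motif TGTGGTT in LILRA2 only (3.33% of starts), and the C/EBP motif TTGCNNAA in LILRA5 only (8.09% of starts).

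Reads reached the family less often than the rest of its chromosome. The 2409 CpG dinucleotides had a mean of 27.95 calls in OCI-AML3 and 28.71 in AML5, against 39.94 and 42.46 over chromosome 19. With 3 methylated calls as the smallest number detected, the floor at median depth was 11.5% (OCI-AML3, 26 calls) and 10.7% (AML5, 28 calls). Values under this floor were kept in the means, and they rest on fewer methylated calls or on deeper sites. The intervals given below are 95% Wilson intervals on the share of methylated calls and cover counting error only. Bisulfite sequencing cannot tell an unmethylated C from a T allele, so a CpG near 0% in one line and near 100% in the other may also be a sequence difference. LILRB3 and LILRA6 need care for a further reason: their sequences are near copies, so that only 25.3% and 28.1% of the 100-base sequences around their promoter CpG dinucleotides are unique in the bisulfite-converted reference, against 76.7% to 100% in the other 8 promoters. The annotation also draws them as overlapping genes with most upstream starts at positions 54746602 and 54746649, and their promoters and bodies are therefore nearly the same CpG dinucleotides.

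The family as a whole was slightly less methylated in the DNMT3A mutant line. Over the 2126 CpG dinucleotides, levels averaged 70.3% in OCI-AML3 (SD between CpG dinucleotides 34.5) and, in AML5, 75.1% (SD 31.1), a difference of -4.82 percentage points. The share of methylated calls was 72.6% (72.2% to 72.9%) and 76.2% (75.8% to 76.5%), a difference of -3.59 points with an interval of -4.06 to -3.13. Fisher's exact test was run at each CpG, which compares the libraries and not the genotypes, with Benjamini-Hochberg adjustment over 24454751 nuclear CpG dinucleotides. In the family 254 of 2126 (11.9%) were lower in OCI-AML3 and 140 (6.59%) were higher at an adjusted P-value under 0.05. Over all nuclear CpG dinucleotides tested, 14.7% were lower and 3.86% were higher. Pooled over the LILR genes, losses were thus fewer and gains more, per CpG, than over the genome at large, as a count without a test of the difference. This was not shared by every gene: losses ran from 3.47% in LILRA4 to 33.3% in LILRA6 in the gene-by-gene count below. Against windows of the same kind, given next, the gap in losses was also smaller. In the promoters 66 of 526 (12.5%) were lower and 36 (6.84%) higher, with 12.7% and 4.82% over all protein-coding promoters. In the bodies outside them 188 of 1600 (11.8%) were lower and 104 (6.50%) higher, with 13.0% and 3.02% over all protein-coding bodies. Full switches were rare: 58 CpG dinucleotides (2.73%) were under 20% in OCI-AML3 and over 80% in AML5, and 9 (0.423%) the opposite, with 2.60% and 0.499% over the genome. Most kept a like level, with 1096 over 80% in both lines and 188 under 20% in both.

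None of the 10 promoters reached a difference of 20 percentage points in either direction, the size used here to call a promoter or gene body, whereas 8.61% of 19667 measured protein-coding promoters were lower and 1.79% higher by over 20 points in OCI-AML3. The count depended on the window: within 1000 bp of the start it was 1 (LILRB4) and around the own start 1 (LILRB3). Within 500 bp of the own start it was 2 (LILRA6 on 10 sites, all upstream, and LILRB3 on only 2 sites). Among the 6501 promoters with as few or as many CpG dinucleotides as those of the family, 12.9% were lower by over 20 points. Gene bodies gave the same count, 0 of 10, with 7.58% of 18292 measured genes lower and 0.541% higher by over 20 points, and over the gene's own span 1 body (LILRA6, -23.6 points) was lower by over 20. The median difference was -9.32 points over the LILR promoters and -4.68 over all promoters, and -6.14 and -4.93 over the bodies. Of the LILR promoters, 7 were lower and 3 were higher in OCI-AML3, where 84.7% of all promoters were lower and 15.3% higher by any amount. Of the bodies, 8 were lower and 2 higher, where 92.9% of all bodies were lower and 7.08% higher. These counts and medians take LILRB3 and LILRA6 as separate genes although they share nearly the same CpG dinucleotides. Signs also changed with the window or summary in the promoters of LILRB5, LILRA2, LILRA1 and LILRB1 and in the body of LILRA4.

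By the mean over CpG dinucleotides, LILRB5 had the largest promoter difference of the inhibitory receptors. Its promoter stood at 53.6% against 68.1% in AML5 (difference -14.5 points, 99 CpG dinucleotides), and 15.8% of all promoters had a more negative difference. In 22 of these CpG dinucleotides Fisher's test called OCI-AML3 lower and in 5 higher. On pooled calls the gap was smaller, 65.5% (63.7% to 67.2%) against 70.4% (68.9% to 72.0%), or -4.98 points, and the order changed, with -14.59 in LILRB4, -12.46 in LILRB3 and -6.07 in LILRB1. LILRB4, the monocytic receptor, had 48.2% and 60.4% at its most upstream start (-12.1 points), and the difference within 1000 bp of that start was -22.95 points. LILRB3 had 55.2% and 66.1% (-10.9 points) at its most upstream start, which lies 19224 bp before its own start and beside the LILRA6 start. LILRB1, a receptor for MHC class I molecules on many leukocytes, had 78.0% and 85.8% (-7.73 points, 20 CpG dinucleotides), and LILRB2, which binds the same class of ligands on myeloid cells, had 52.2% and 56.8% (-4.59 points).

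Among the activating receptors, LILRA6 had 54.4% and 67.7% (-13.2 points) over 50 CpG dinucleotides, nearly the same ones as for LILRB3. LILRA5 had 54.5% and 65.4% (-10.9 points). The other 3 were higher in OCI-AML3. LILRA4, a receptor of plasmacytoid dendritic cells, had 80.2% and 75.1% (5.08 points), and its pooled share was 81.4% (79.9% to 82.7%) against 75.4% (73.7% to 77.0%), with 13 CpG dinucleotides called higher and 3 lower. A difference as high or higher is uncommon, since 92.9% of promoters lay below it. LILRA2 had 35.2% and 32.4% (2.79 points), but -3.98 points on pooled calls, so no direction is given for it. LILRA1 had 65.2% and 64.9% (0.35 points), with -2.10 points on pooled calls and an interval of -5.30 to 1.09.

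The gene bodies separated a pair of genes from the rest. LILRA1 and LILRB1 were more methylated in OCI-AML3 by 6.50 and 4.91 points, and few genes lie as far to that side: 97.6% of all bodies had a more negative difference than LILRA1, and LILRB1 came next among the members. The LILRB1 body stood at 79.3% against 74.4% in AML5 (285 CpG dinucleotides), with 43 called higher and 13 lower. The LILRA1 body had 82.1% and 75.6% over 100 CpG dinucleotides, with 16 called higher and 5 lower. On pooled calls the gains were 5.31 points (4.07 to 6.54) in LILRB1 and 7.09 points (5.19 to 8.98) in LILRA1. The other 8 bodies differed by -3.24 points in LILRA4 to -12.3 points in LILRB5, whose body had 62.1% and 74.4% with 33 CpG dinucleotides called lower and 5 higher. Within this range the LILRB3 and LILRA6 bodies are nearly the same CpG dinucleotides. Over their own spans the difference was -23.6 points in LILRA6 and -2.54 points in LILRB3. For LILRA4 the sign changed with the summary, to 1.54 points on pooled calls.

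Counted in windows that do not overlap between LILRB3 and LILRA6, the direction of single calls differed from gene to gene. For this count the promoter was set around each gene's own start, that is the start of the canonical transcript or, for LILRB3 and LILRA6, which have no canonical transcript marked, of their own short transcripts, and the body was the gene's own span. LILRA6 had the highest share of losses, 38 of 114 CpG dinucleotides (33.3%), with 7 gains. LILRB5 followed with 55 of 221 (24.9%) and LILRA5 with 21 of 113 (18.6%). Gains outnumbered losses in LILRB1 (44 gains and 13 losses of 294), LILRA1 (19 and 8 of 153) and LILRA4 (14 and 5 of 144). LILRB3 had 14 losses and 0 gains of 131. In LILRB4, 35 of 362 were losses and 16 gains, in LILRB2 24 and 8 of 175, and in LILRA2 15 and 5 of 195.

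The own starts of several receptors lay in or beside short stretches of low methylation in both lines. A stretch is here the longest run of consecutive CpG dinucleotides under 20% that reaches within 1000 bp of the start. In LILRB4 it spanned 1317 bp (34 sites) in OCI-AML3, and 956 bp (30 sites) in the other line. The 4 CpG dinucleotides closest to this start, at -57, -35, -4 and 45 bp, had 0 methylated calls of 31, 30, 28 and 22 in OCI-AML3 and of 47, 41, 37 and 27 in AML5. LILRA2, an activating receptor of monocytes and granulocytes, had a stretch of 1489 bp in OCI-AML3 and 1956 bp in AML5. LILRB2 had 1094 bp (22 sites) in OCI-AML3. In AML5 the LILRB2 start lay in a run of 6 sites from -184 to 29 bp. An equally long run followed from 60 to 314 bp, set apart by the CpG at 45 bp with 12 of 25 methylated calls. The stretches measured, in the same order, 708 bp and 379 bp at LILRB1, and 783 bp and 715 bp at LILRA1. In LILRA5 the stretch lay downstream of the start, from 240 to 822 bp in OCI-AML3 and from 293 to 690 bp in AML5.

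Within 500 bp of the own start, LILRA2 averaged 1.34% (OCI-AML3) and 5.87% (AML5), and LILRB4 2.03% and 9.32%. These were the 2 members with a mean under 20% in both lines, as were 59.8% of the start windows of all genes and 33.2% of those with 5 to 60 CpG dinucleotides. LILRB2 had 16.9% and 21.7%, LILRA1 22.0% and 24.3%, and LILRB1 31.1% and 29.7%, with the flanks of the stretch inside the window. At the other end, LILRA4 had 86.4% and 80.8% over 22 CpG dinucleotides. The CpG 16 bp downstream of the LILRA4 start had 34 methylated of 35 calls in OCI-AML3 and 23 of 36 in AML5 (adjusted P-value of Fisher's exact test 0.0046). LILRB5 had an intermediate start, 52.8% and 52.4%, with single CpG dinucleotides in both directions. LILRA6, with 10 of 24 CpG dinucleotides read deeply enough, had 8.99% and 41.3%, a difference of -32.4 points where 10.1% of all start windows were lower by over 20 points. These 10 sites all lay upstream, from -487 to -210 bp, and sites closer to the start had too few reads. Only 4 of the 24 had a unique 100-base sequence. LILRB3 had 2 of 18 CpG dinucleotides read deeply enough in its start window and is given no level there.

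Single CpG dinucleotides in and beside these stretches differed between the lines. In LILRB4, at -445 and -440 bp, 0 of 35 and 0 of 35 calls were methylated in OCI-AML3. In AML5 the same sites had 43 of 48 and 37 of 45 (Fisher's exact test, adjusted P = 3.4e-16 and 3.2e-13). In LILRB1, 180 bp downstream of the own start, 0 of 54 calls were methylated in OCI-AML3 and 20 of 46 in AML5 (Fisher's exact test, adjusted P = 2.7e-07), and at 332 bp 0 of 36 and 17 of 43 (adjusted P = 0.00012). Between them, the CpG at 237 bp had 3 of 59 and 14 of 39 (Fisher's exact test, adjusted P = 0.0016), and the one at 246 bp had 0 of 57 and 0 of 40. Upstream of the same start the direction was opposite, with 39 of 41 and 16 of 36 methylated calls at -317 bp and 8 of 27 and 0 of 27 at -212 bp (the same exact test, adjusted P = 1.1e-05 and 0.026). In LILRB2, 45 bp downstream, 0 of 14 and 12 of 25 calls were methylated (Fisher's exact test, adjusted P = 0.017). The LILRA5 start held differences of both signs: at 161 bp, 39 of 49 calls were methylated in OCI-AML3 and 8 of 49 in AML5 (Fisher's exact test, adjusted P = 1.2e-08). At 166 bp the counts were 44 of 49 and 17 of 48, and at 270 bp 0 of 47 and 19 of 39 (the same exact test, adjusted P = 4.7e-07 and 3.2e-07). LILRB5 also held both signs. At 77, 113 and 172 bp, 12 of 12, 8 of 9 and 12 of 12 calls were methylated in OCI-AML3 and 8 of 17, 2 of 17 and 7 of 21 in AML5 (the same exact test, adjusted P = 0.021, 0.002 and 0.0015). At -400 bp the counts were 0 of 16 and 21 of 33 (adjusted P of the same exact test 0.00012).

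Upstream starts of LILRB1, LILRB4 and LILRB3 were unlike their own starts. The most upstream annotated start of LILRB1 lies 13323 bp before the own start, and its promoter was methylated in both lines at 78.0% and 85.8%, against 66.6% and 66.4% in the promoter of the own start. The most upstream start of LILRB4 lies 19097 bp before the own start. There the promoter stood at 48.2% and 60.4%, and at the own start 39.3% and 45.7%. For LILRB3 the distance is 19224 bp, and the promoter of the own start had 39.1% and 75.7%. Only 26 of its 78 CpG dinucleotides were read deeply enough, and 37.2% of the 78 had a unique 100-base sequence.

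The difference at the upstream LILRB4 start gathered in a differentially methylated region (DMR), as did others in the family. DMRs were taken from smoothed profiles as runs of at least 3 CpG dinucleotides with non-overlapping 95% intervals, no gap over 300 bp and a difference in mean level of at least 20 percentage points. The LILR genes or promoters were overlapped by 10 hypomethylated DMRs and 0 hypermethylated DMRs. The 10 hypomethylated DMRs fell in LILRB3 and LILRA6 (the same 5), LILRB5 (3) and LILRB4 (2), and the remaining 6 of the 10 genes had none. Counted by gene, a hypomethylated DMR overlapped 73.6% of all protein-coding genes and a hypermethylated one 21.8%. The LILR bodies held fewer CpG dinucleotides (median 135, against 357 over all bodies), and the part of this in the overlap was not tested.

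The longest DMR of LILRB5, at chr19:54757538-54759941, began 1195 bp inside the gene and held 66 CpG dinucleotides at 45.1% against 69.7% in AML5. The DMR at the upstream LILRB4 start, at chr19:55154321-55156048, held 29 CpG dinucleotides at 27.5% and 48.6%, with shares of calls of 26.1% (22.9% to 29.6%) and 48.6% (44.5% to 52.7%). In the overlapping LILRB3 and LILRA6 annotation, the region at chr19:54740334-54742394 covered the far end of the LILRA6 span and stood at 48.2% and 91.5% over 36 CpG dinucleotides, all with unique 100-base sequences. Another, at chr19:54748311-54749726, lay before the LILRA6 start (from -3086 to -1671 bp) and stood at 45.6% and 88.4% over 49 CpG dinucleotides, of which 36 had unique sequences. Depth in this region differed between the lines, with 25.7 calls per CpG against 47.1 in AML5, and its part in the result was not tested.

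The 3 shortest exonic DMRs are printed whole on the strand of the gene, CpG dinucleotides in capitals, because each rests on a handful of sites. They lie at chr19:54754644-54754804 in LILRB5 (minus strand, 153 of 161 bp in exons), chr19:55180872-55181052 in LILRB4 (plus strand, wholly exonic) and chr19:54726839-54726937 in LILRB3 (minus strand, wholly exonic).
LILRB5: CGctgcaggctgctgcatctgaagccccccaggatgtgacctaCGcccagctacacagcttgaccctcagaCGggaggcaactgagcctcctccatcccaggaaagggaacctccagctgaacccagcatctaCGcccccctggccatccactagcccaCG
LILRB4: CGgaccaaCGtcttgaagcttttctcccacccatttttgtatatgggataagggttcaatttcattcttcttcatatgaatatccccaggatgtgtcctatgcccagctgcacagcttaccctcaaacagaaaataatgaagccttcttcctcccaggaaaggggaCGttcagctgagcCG
LILRB3: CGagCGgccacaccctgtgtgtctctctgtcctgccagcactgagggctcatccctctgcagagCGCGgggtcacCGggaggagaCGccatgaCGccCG
The 5 CpG dinucleotides of the LILRB5 stretch, in genome order, had 1 of 30, 7 of 23, 2 of 18, 0 of 17 and 0 of 10 methylated calls in OCI-AML3. In AML5 the same sites had 19 of 32, 23 of 25, 8 of 23, 9 of 24 and 12 of 21. Each was lower in OCI-AML3, and 4 of the 5 passed Fisher's exact test. Of the 4 in LILRB4, 1 passed the test, with 3 of 21 methylated calls in OCI-AML3 and 27 of 35 in AML5 (adjusted P of Fisher's exact test 7.4e-05).

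The LILRB3 stretch stood at 17.2% in OCI-AML3 and 69.4% in AML5, the widest gap of the 10, on the least certain read placement. It had 8 CpG dinucleotides, 8 to 13 calls per site and line, and 0 of 8 sites with a unique 100-base sequence. Its 99 bases differ at 1 base from the last 99 bases of the LILRA6 run printed above. Upstream of the LILRA6 start, from -526 to -210 bp, the DMR at chr19:54746850-54747166 stood at 9.31% and 38.0% over 11 CpG dinucleotides, 4 of them unique. The 2 unique sites at -315 and -305 bp had 3 of 52 and 4 of 56 methylated calls in OCI-AML3 and 31 of 73 and 32 of 70 in AML5 (Fisher's exact test, adjusted P = 5e-05 and 1.7e-05), and the unique sites at -263 and -251 bp had like levels in both lines (35.7% and 36.9%, 20.5% and 19.7%). A site at -487 bp without a unique sequence was at 0 of 28 in OCI-AML3 and 30 of 30 in AML5. Reads were absent from 25 of the 89 CpG dinucleotides of the LILRA6 promoter in OCI-AML3 and from 6 in AML5.

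Regions with differences under the 20-point limit included gains. In LILRB1, 55 CpG dinucleotides at chr19:55146642-55148775 had 85.3% in OCI-AML3 and 66.2% in AML5 (19.1 points), and 56 at chr19:55143292-55145628 had 87.1% and 74.5%, both overlapping exons of coding transcripts. In LILRA1, 20 CpG dinucleotides at chr19:55108787-55109585 had 76.4% and 61.7%. Just inside the own start of LILRB1, by contrast, 18 CpG dinucleotides at chr19:55141953-55142824 had 13.2% and 32.6%. Within 500 bp on either side of that start the LILRB1 mean was 1.44 points higher in OCI-AML3, and 0.01 points on pooled calls. Over the own start of LILRB4, 32 CpG dinucleotides at chr19:55173030-55174550 had 44.8% and 62.1% (-17.2 points).

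Genes that work with the receptors, or lie beside them, were described by the same promoter measure. Of 17 signalling partners and ligands, 3 (17.6%) were lower by over 20 points, where 8.61% of all measured promoters were. FCER1G, the adaptor of the LILRA receptors, stood at 21.1% in OCI-AML3 and 78.7% in AML5 (-57.6 points). BST2, a ligand of LILRA4, stood at 19.4% and 63.3% (-43.8 points), and FGR, a Src family kinase of myeloid cells, at 37.8% and 79.7% (-41.9 points). PTPN6, the phosphatase recruited by LILRB receptors, had a promoter at 58.4% and 61.6% and a body at 28.8% and 52.5%. The median of this list was -5.35 points.

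Of the 30 measured neighbours in the leukocyte receptor complex, 0 were lower or higher by over 20 points, with a median of -5.87 points and a range of -17.8 to 5.87. LAIR1, an inhibitory collagen receptor, marked the upper end with 34.6% and 28.8%, and VSTM1 the lower. The SIGLEC genes, another receptor family of chromosome 19 with inhibitory members, had 3 of 10 promoters lower by over 20 points and a median of -14.0 points. SIGLEC11 had 47.4% and 84.0%, SIGLEC6 38.9% and 61.2%, and SIGLEC7 55.9% and 77.7%. Their bodies differed by a median of -21.9 points, against -6.14 in the LILR genes. The lists were not tested against each other.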

How the data were processed

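Whole-genome bisulfite sequencing of OCI-AML3 and AML5 was available as 1 table per line. Per the labels and the study's methods, the authors spiked DNA with unmethylated lambda DNA, converted it in repeated rounds, sequenced paired ends and aligned them to hg19 with Bismark and Bowtie (0.12.8 in the submitters' processing notes). The deposited values are unnormalized counts: for every CpG, how many calls were methylated and how many were not, with the strands summed. Duplicate removal is not given in the sources used here. Mitochondrial CpG dinucleotides, nearly all unmethylated (12239 methylated and 7252594 unmethylated calls in OCI-AML3), settled which column held which count. On chromosomes 19 and 22, where this was checked, every listed position is a CpG of GRCh37.

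Starts and genes came from GENCODE 44 lifted to GRCh37, with the most upstream base of all transcripts as the start, as in the study. A site entered a mean where each library had over 5 reads there. In the shares over all genes, a promoter or gene body needed at least 10 such sites and a start window at least 5. The LILRB3 start window, with 2 sites, fell short of this. For DMRs, a quadratic binomial local-likelihood fit with tricube weights smoothed each profile, over a window of 1000 bp to each side or 70 sites, whichever was wider (ridge 0.001). Sequence uniqueness was counted for 100-base windows after in-silico conversion. Python 3.11.15, numpy 2.4.6, numba 0.67.0, scipy 1.17.1 and pysam 0.24.0 were used, and the scripts were tested on simulated data. The LILR genes were all named, and other genes came from 3 lists (receptor complex neighbours, signalling partners and ligands, SIGLEC), of which those past 20 points and up to 2 others were named. Single CpG dinucleotides, regions and printed sequences were chosen after their values were seen. The members and lists were chosen with earlier results of these data known.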

Additional observations from a re-analysis of the deposited data

How the results depend on the processing

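With 1 library per line no replicate could be left out. No paired analysis was possible because each group had a single library. The 0 promoters lower by over 20 points became 1 within 1000 bp of the start (LILRB4, -22.9 points). With windows added after seeing the data, the count became 1 around the own start (LILRB3, -36.5 points, on 26 of 78 CpG dinucleotides). Within 500 bp of the own start it became 2 (LILRB3, on 2 sites, and LILRA6, -32.4 points, on 10 sites, all upstream). The 0 gene bodies became 1 over the own span (LILRA6, -23.6 points). The 10 hypomethylated DMRs became 44 without a minimum difference, 6 without a limit on the gap and 22 from raw Wilson intervals, and the 0 hypermethylated DMRs became 13, 0 and 6. The counts of CpG dinucleotides past Fisher's exact test stayed within 1.5 times in every alternative run. Of 90 alternative promoter values, 63 lay within the pooled-call interval recentred on the reported mean, 27 moved and 12 changed sign, none of them called. Of 70 body values, 56 lay within it, 14 moved and 3 changed sign. Signs changed in the promoters of LILRB5, LILRA2, LILRA1 and LILRB1 and in the body of LILRA4. The cause of these changes was not tested. The smoothing window averages over many sites, so a narrow region can be missed as a DMR. Low levels at a single CpG rest on few methylated calls, as given above, and calls on 1 read are not independent.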
